A study of Rattus norvegicus with 6 samples.

Results

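Cyp2e1 and Nat1 encode enzymes that act on foreign small molecules, and their transcripts were followed here in stromal cells of rat bone marrow (BMMSCs), which grow attached to plastic and can become osteoblasts. Each gene was taken from a probe whose accession in the array files belongs to it in RefSeq (assembly GRCr8), A_44_P409232 for Cyp2e1 and A_44_P276435 for Nat1, and each probe was printed at 10 spots per array. They are 2 of the 30 genes that could be named among the 38804 probes of the array. The cells came from femurs of Wistar rats, the normal controls, or of GK rats, the strain that stands for type 2 diabetes (T2DM) in this study, and both groups had spent 7 days in osteogenic induction medium. There were 3 samples per group, each labelled with Cy3 and hybridised to its own array. The labels give no age or sex and do not tie samples to animals, so a p-value here reflects the spread among 3 cultures or extracts that may be technical. Any effect of diabetes cannot be told apart from the rest of what separates the strains, and with no uninduced sample the effect of the medium is not measured.

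Cyp2e1 is a cytochrome P450 of the endoplasmic reticulum that is best known from liver, where it oxidises ethanol, acetone, paracetamol and other small solvents and drugs and releases reactive oxygen in doing so. It is a phase I enzyme, one that adds or exposes a reactive group. In liver its amount is known to rise with ethanol, fasting and uncontrolled diabetes. Of such changes an RNA array sees those in the amount of RNA and not those in the life of the protein. Nat1 is an arylamine N-acetyltransferase of the cytosol, a phase II enzyme that moves an acetyl group from acetyl-CoA to aromatic amines and hydrazines. It belongs to a small family with Nat2 and Nat3, which lie on the same chromosome in the rat, and the annotated span of Nat2 overlaps that of Nat1. RefSeq lists 11 transcripts for Nat1 and 1 for Cyp2e1. The probe sequences were not used here, so whether the Nat1 probe also binds RNA of Nat2 was not tested.

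Both transcripts gave signal on every array. All 60 spots of the Cyp2e1 probe and all 60 of the Nat1 probe were well above background by the scanner software's own test, and none was saturated. The distance from background was very different for the 2 probes. The median foreground of the Cyp2e1 spots lay between 2.88 times the local background (Wistar replicate 1) and 6.08 times (Wistar replicate 2), while that of the Nat1 spots lay between 29.9 times (GK replicate 1) and 65.6 times (GK replicate 3). The local background itself was between 15 and 18 intensity units at both. These ratios say how much room each probe had above background, and they do not compare the amounts of the 2 transcripts, since probes bind with different strength.

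**Figure D1:**
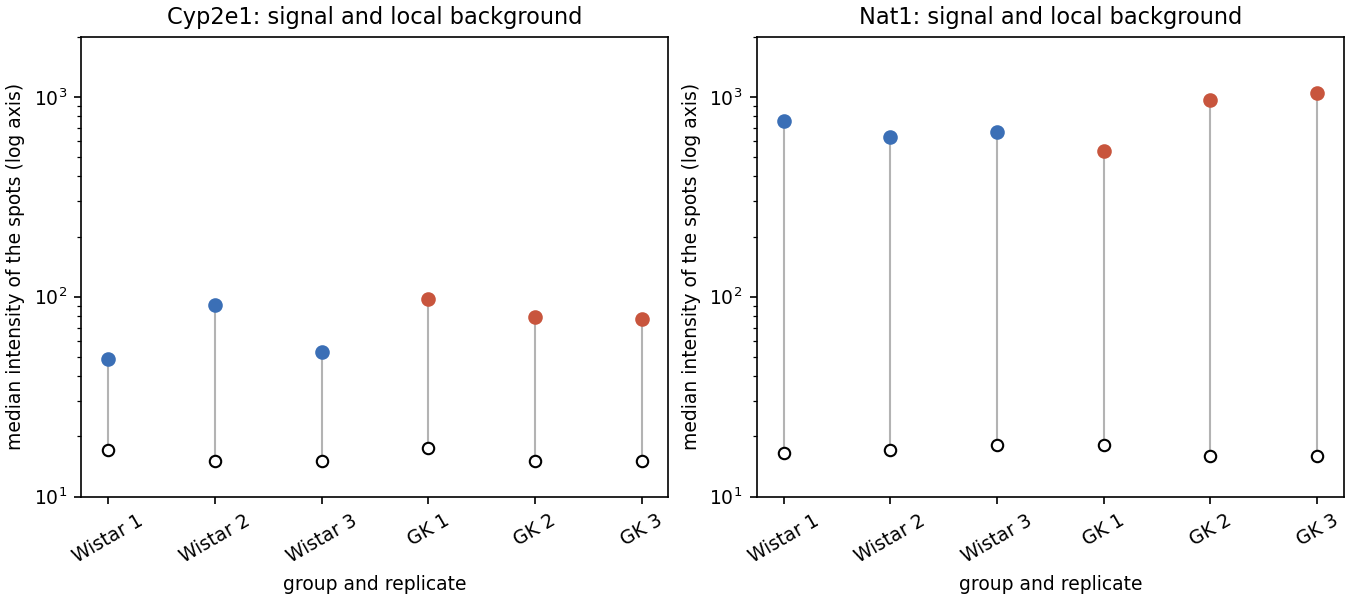
Median foreground intensity of the used spots of each probe (filled points, Wistar in blue and GK in red) and the median local background around them (open points), per array on a logarithmic axis. Cyp2e1 sits between 49 and 97 over a background of 15 to 17.5, and Nat1 between 537.5 and 1050 over a background of 16 to 18.

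The phase I gene, Cyp2e1, varied widely inside both groups. Its processed signal, the background-corrected brightness averaged over the spots of an array on the log scale, was 21.5, 66.3 and 32.3 in Wistar replicates 1, 2 and 3. In GK replicates 1, 2 and 3 it was 76.8, 51.2 and 55.0. The 3 GK arrays were thus closer to each other than the 3 Wistar arrays, of which replicate 2 was bright and replicates 1 and 3 dim. To compare arrays, the log2 signal was set against the 75th percentile of all non-control probes on the same array, so that 0 means a probe at that percentile. On this scale Cyp2e1 had a log2 level of -3.33, -1.55 and -2.42 in Wistar replicates 1, 2 and 3. The GK log2 levels were -1.16, -1.93 and -2.09. The groups overlapped, because Wistar replicate 2 lay above GK replicates 2 and 3. In order of level, GK replicate 1 was highest, followed by Wistar replicate 2, GK replicates 2 and 3, Wistar replicate 3 and, last by a further 0.91, Wistar replicate 1.

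Averaged over the 3 GK arrays, the log2 level of Cyp2e1 was -1.73 ± 0.50 (SD, n = 3), and over the 3 Wistar arrays it was -2.43 ± 0.89 (SD, n = 3). The GK mean was 1.63-fold that of Wistar, a log2 difference of 0.70 with a standard error of 0.48. This difference was within the spread between arrays: limma, fitted over all 27920 probes tested, gave an unadjusted p of 0.187 and a Benjamini-Hochberg adjusted p of 0.603. The 95% interval of the log2 difference ran from -0.44 to 1.85, that is from 1.35-fold lower to 3.60-fold higher in GK cells. An exact two-sided permutation test of the group means gave p = 0.4, where 3 against 3 arrays cannot go below 0.1. No change and a rise of more than 3-fold both lie inside that interval.

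The size of the Cyp2e1 difference depended on single arrays and on how background was treated. It was 0.26 without Wistar replicate 1, 1.15 without Wistar replicate 2 and 0.42 without GK replicate 1. The value without Wistar replicate 2 had an unadjusted limma p of 0.0346 and an adjusted p of 0.617. With normexp, which models background and adds a constant of 50 to every spot, the log2 difference was 0.24. With a constant of 1 in its place it was 0.51, and with the software's background-subtracted signal it was 0.80. An added constant shrinks ratios most where the signal is low. The processed Cyp2e1 signal was below 50 on Wistar replicates 1 and 3. It was just above 50 on GK replicates 2 and 3 (51.2 and 55.0) and higher on Wistar replicate 2 and GK replicate 1. How far the constant accounts for the smaller difference was not tested. In the fit that weights arrays by how well they follow their group, Wistar replicate 2 received a weight of 4.90 and the difference was 0.072. A second estimate of those weights, by REML, gave Wistar replicate 2 a weight of 11.1 and a difference of -0.15, which turned the direction; limma gave 1 warning there, that the estimate stopped before its convergence tolerance.

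Nat1, the phase II gene, was steadier. Its processed signal was 790.9, 614.1 and 680.1 in Wistar replicates 1, 2 and 3, and 519.2, 935.9 and 1036 in GK replicates 1, 2 and 3. After scaling, the Wistar log2 levels were 1.87, 1.67 and 1.97 and the GK log2 levels 1.60, 2.26 and 2.14. GK replicates 2 and 3 were above all 3 Wistar arrays and GK replicate 1 was below all 3. By array means the GK group therefore enclosed the Wistar group, with the highest and the lowest arrays both on its side. The lower edge was not sharp. GK replicate 1 lay only 0.068 below Wistar replicate 2, and its spots overlapped those of Wistar replicates 1 and 2.

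Averaged over the arrays of a group, the log2 level of Nat1 was 2.00 ± 0.35 (SD, n = 3) for GK and 1.84 ± 0.16 (SD, n = 3) for Wistar, a log2 difference of 0.16 (standard error 0.24) or 1.12-fold. Here too the difference was smaller than the spread between arrays, with an unadjusted limma p of 0.518 and an adjusted p of 0.835. The 95% interval ran from -0.40 to 0.73, that is from 1.32-fold lower to 1.66-fold higher in GK cells. The exact two-sided permutation test gave p = 0.5. This interval was narrower than that of Cyp2e1.

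The direction for Nat1 rested on which GK arrays were used. The file headers give a shared scan time to the 3 Wistar arrays and GK replicate 1, and another to GK replicates 2 and 3. Within the first scan, where GK replicate 1 alone stands against the Wistar arrays and is assumed to vary as they do, the log2 difference of Nat1 was -0.24 (limma adjusted p = 0.682), and with the scan as a fixed block it was again -0.24. The second scan holds GK arrays only and gives no value. With the scan as a random block the difference was 0.054 and without GK replicate 1 it was 0.36. Leaving out GK replicate 2 or 3 brought it to 0.032 or 0.091, and leaving out Wistar replicate 2 to 0.076. For Cyp2e1 the same first scan gave, under the same assumption, a log2 difference of 1.27 (limma adjusted p = 0.463), since GK replicate 1 was its highest array.

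**Figure D2:**
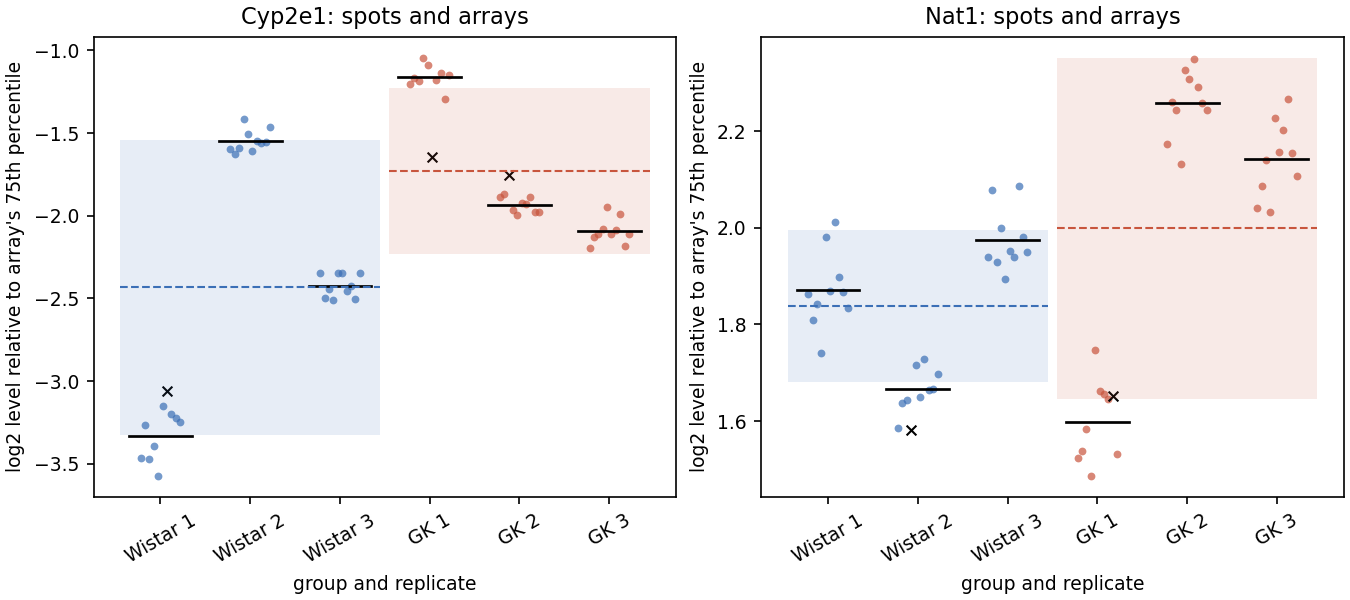
Log2 level of each spot relative to the 75th percentile of its array, for Wistar (blue) and GK (red) replicates 1 to 3. Short black lines are array means, crosses are spots left out as outliers, dashed lines are group means and shaded bands are 1 SD (n = 3 arrays); the vertical axes of the panels differ. Cyp2e1 of Wistar replicate 2 lies among the GK arrays. The Nat1 mean of GK replicate 1 lies below those of all Wistar arrays, but its spots overlap those of Wistar replicates 1 and 2.

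Neither gene was among the probes that passed in the comparison of GK with Wistar cells. At an adjusted p under 0.05 limma called 0 of these 2 genes and 0.358% of all probes tested (100 of 27920). At an unadjusted p under 0.05 it again called 0 of 2, against 12.6% of all probes tested. The GK and Wistar arrays overlapped for both genes, while they did not overlap for 18.6% of all probes tested. The spread within groups, pooled over the 2 strains, was 0.72 on the log2 scale for Cyp2e1 and 0.27 for Nat1, and its median over all probes tested was 0.33. Of the 22 other named genes that were tested, 18 had a smaller spread than Cyp2e1 and 8 a smaller spread than Nat1.

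**Figure D3:**
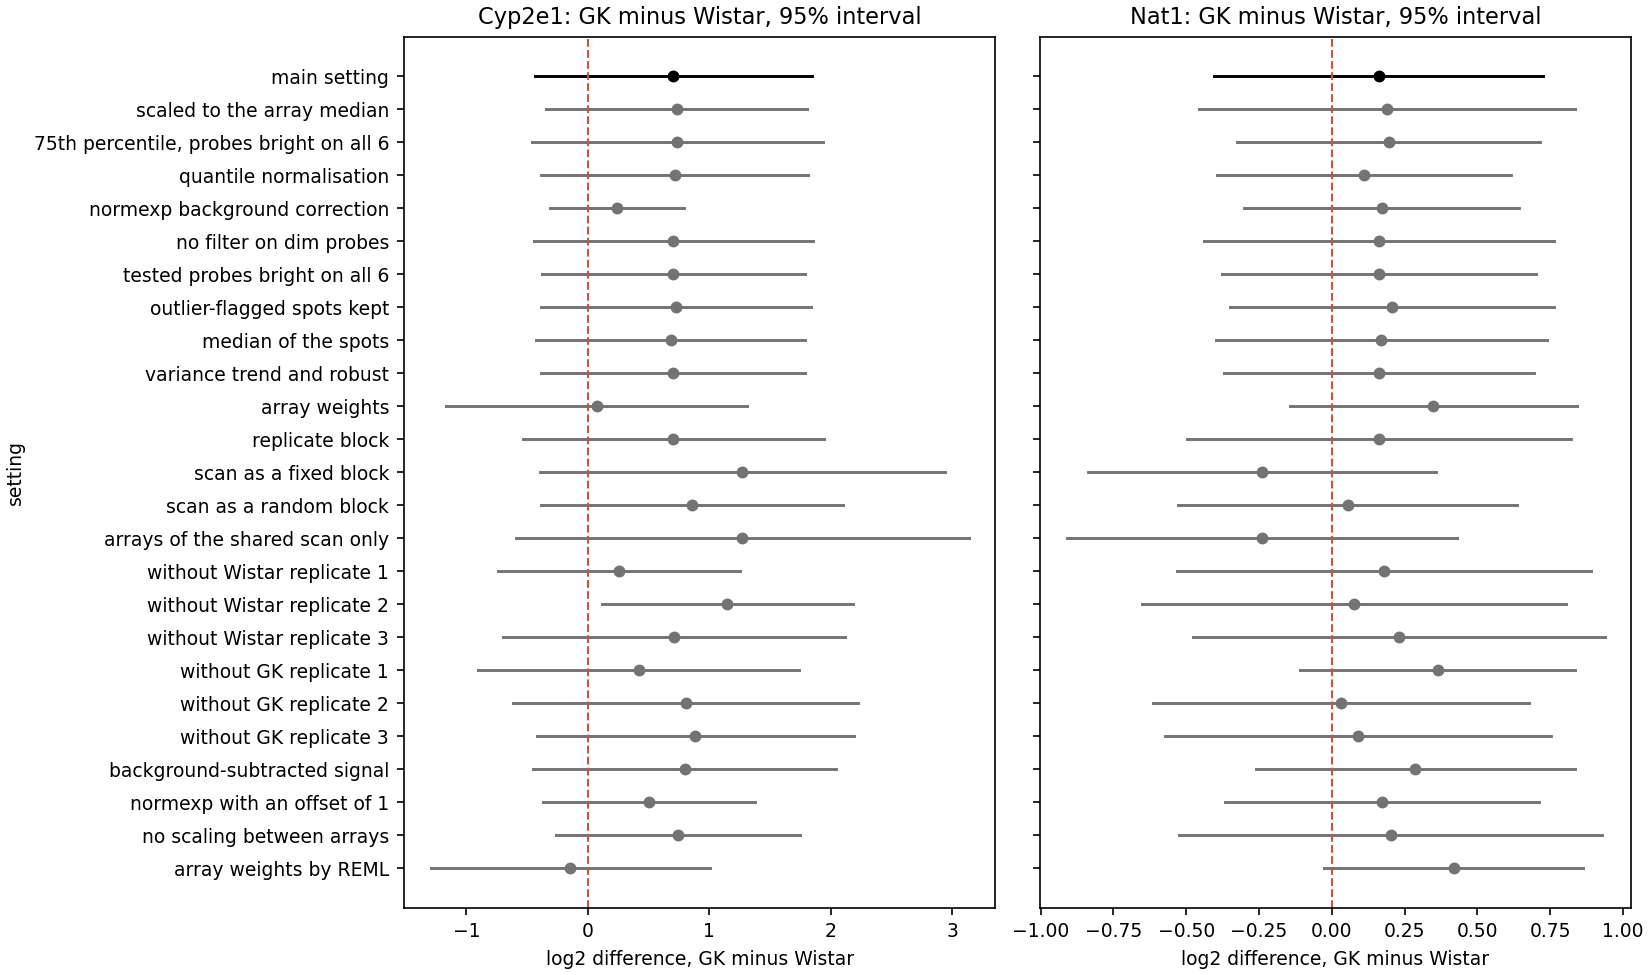
Log2 difference, GK minus Wistar, for Cyp2e1 and Nat1 under the main setting (black) and 24 alternatives (grey), with 95% intervals from limma; the dashed line marks no difference and the horizontal axes of the panels differ. The intervals of Cyp2e1 include 0 in every setting except without Wistar replicate 2, and those of Nat1 include 0 in every setting.

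The repeated spots of a probe differed far less within an array than the arrays did. The SD between the spots of an array ran from 0.047 to 0.15 on the log2 scale for Cyp2e1 and from 0.044 to 0.085 for Nat1. The highest of these values, 0.15, belonged to the dimmest array of Cyp2e1, Wistar replicate 1, whose used spots ranged from 18.2 to 24.3 in processed signal. After scaling, the spot ranges of Cyp2e1 did not touch in 14 of the 15 pairs of arrays, the exception being GK replicates 2 and 3. For Nat1 they did not touch in 10 of 15 pairs. The 5 pairs that overlapped included GK replicate 1 with Wistar replicates 1 and 2, and GK replicate 3 with Wistar replicate 3. Spots of an array share the same labelled RNA and are not replicates of a strain, so this precision describes each array and not GK or Wistar cells. The software flagged 3 of the 60 Cyp2e1 spots and 2 of the 60 Nat1 spots as outliers. The farthest was a Cyp2e1 spot on GK replicate 1 that read 0.48 below the mean of its array on the log2 scale, and keeping all flagged spots gave differences of 0.73 for Cyp2e1 and 0.21 for Nat1.

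Among the named genes, those whose log2 levels over the 6 arrays followed Cyp2e1 most closely were Eif4b, a translation initiation factor (Pearson's r = 0.82), Fgf2, a fibroblast growth factor (r = 0.75), and Ptk2b, a focal adhesion family tyrosine kinase (r = 0.71). Eif4b was at its lowest on Wistar replicate 1 (0.85), as Cyp2e1 was, and read 1.61 and 1.18 in Wistar replicates 2 and 3 and 1.51, 1.65 and 1.64 in GK replicates 1 to 3. Fgf2 shared with Cyp2e1 its highest array, GK replicate 1 (-0.53), and among the Wistar arrays its highest level was on replicate 2 (-1.26). Ptk2b was lowest on Wistar replicate 1 (-4.58) but highest on Wistar replicate 3 (-1.96), where Cyp2e1 was low. On Wistar replicate 1 the Ptk2b probe was dimmer than the Cyp2e1 probe (-3.33), and its r without that array was not computed. At the other end, Cdh2, which encodes N-cadherin, ran against Cyp2e1 (r = -0.77).

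The 3 named genes most like Nat1 were Odf2l, a centrosomal protein (Pearson's r = 0.87), Cse1l, a nuclear export receptor (r = 0.78), and Trim2, a ubiquitin ligase (r = 0.65). Odf2l had the same 2 highest arrays as Nat1, with GK replicates 2 and 3 at log2 levels of -0.081 and 0.13, and the same lowest, GK replicate 1 at -0.88. Cse1l moved little, from 2.88 in Wistar replicate 2 to 3.21 in GK replicate 3. For each of the 2 genes these were the 3 highest of 23 coefficients, over 6 arrays whose values share the array scaling, and they are a description with no test.

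**Figure D4:**
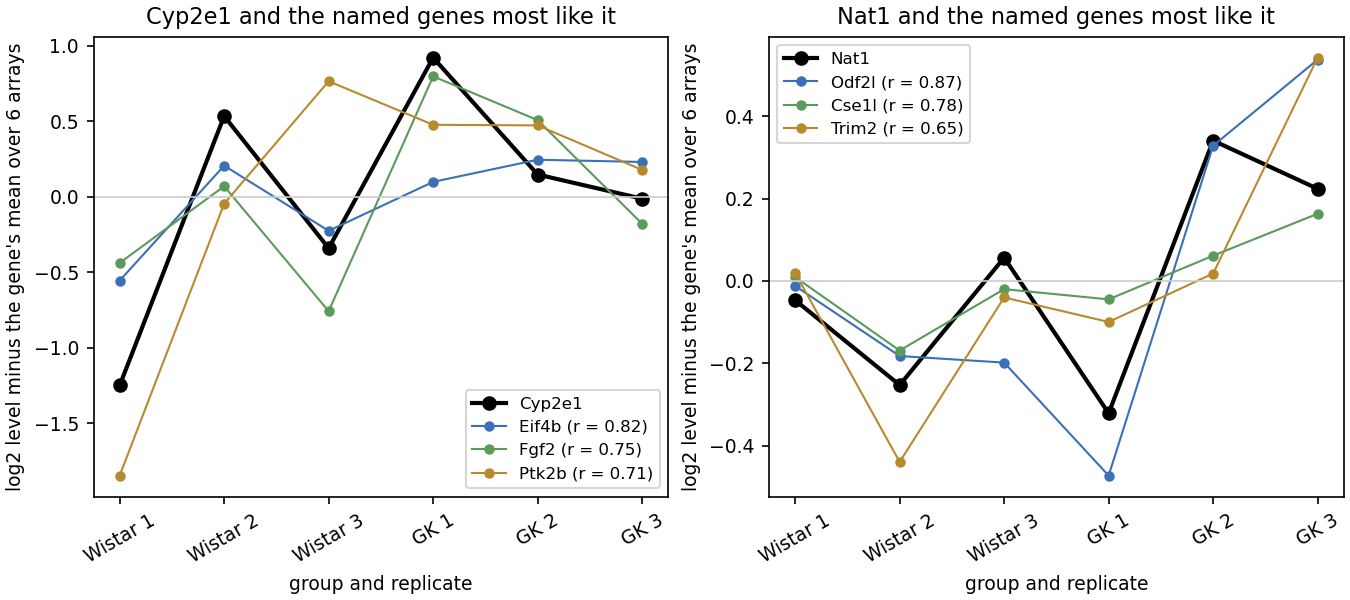
Log2 level minus the gene's own mean over the 6 arrays, for Cyp2e1 (left, black) and Nat1 (right, black) with the 3 named genes of highest Pearson's r (coloured lines); the vertical axes differ. Cyp2e1, Eif4b and Ptk2b share a low point at Wistar replicate 1, and Nat1 and Odf2l share a low point at GK replicate 1 and high points at GK replicates 2 and 3.

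Other genes of xenobiotic metabolism could not be set beside these. In a list of 112 P450s other than Cyp2e1, reductases, transferases, transporters and their regulators, Nat1 was the 1 member with a named probe, so no further enzyme of either phase can be given. The labelled cell type could not be checked on this basis either. None of 10 stromal, 5 adipocyte, 6 haematopoietic, 4 endothelial or 6 hepatocyte markers had a named probe. Of 10 osteoblast markers, Enpp1, which makes the mineralisation inhibitor pyrophosphate, had one and was well above background on 6 of 6 arrays. Of 4 neural markers, Map2, a neuronal microtubule protein, had one and was well above background on 2 of 6. In bulk RNA, fewer cells with a transcript and less of it per cell cannot be told apart, and whether another cell type carries the Cyp2e1 signal was not tested.

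Across the 6 arrays, the share of probes well above background ran from 65.1% to 77.3%, and the 75th percentile used for scaling from 171.6 to 234.8 in processed signal. GK replicate 3 stood apart from the other GK arrays. Its Pearson correlation across probes was 0.948 and 0.962 to GK replicates 1 and 2, which correlated at 0.982 with each other. To Wistar replicates 1, 2 and 3 the correlation of GK replicate 3 was 0.961, 0.968 and 0.971. For GK replicate 2 the correlations to the same Wistar arrays were 0.968, 0.966 and 0.947. For these 2 genes the outlying GK array was replicate 1, not 3. Without GK replicate 3 the log2 differences were 0.89 for Cyp2e1 and 0.091 for Nat1, with limma adjusted p of 0.505 and 0.925. Having 3 arrays in each group limits the precision.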

How the data were processed

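Total RNA of 3 Wistar and 3 GK samples was measured on 1 single-colour array each, with groups and replicate numbers read from the titles. Per the file headers, the authors extracted a linear intensity for every spot with version 11.0.1.1 of Agilent Feature Extraction, which corrects background and leaves arrays unnormalised against each other. The authors' deposited series table of log2 values does not hold either probe and served only for the count over all probes; how it was normalised is not stated in any source used. The headers name an older rat build than RefSeq's, so no coordinates are printed.

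Control spots and outlier-flagged spots were left out (0.356% to 1.21% of spots), log2 processed signals of a probe's spots were averaged, and each array's 75th percentile was subtracted. A probe counted as well above background on an array when at least 50% of its spots were. Probes well above background on at least 3 arrays and measured on at least 2 per group were tested (27920) with limma 3.58.1 in R 4.3.3, two-sided, with Benjamini-Hochberg adjustment. The procedure was tested on simulated data. Those data held no scan effect and no differences in array quality, so they do not bear on either. Names came from accessions matched to RefSeq: 30 probes matched 1 gene and 38774 are unnamed here.

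Of the 30 genes with a name, the text describes, by rule, Cyp2e1 and Nat1, members of the xenobiotic and marker lists, and for each of the 2 the 3 others with the highest correlation. Cdh2, the lowest correlation with Cyp2e1, was added after its value was seen. The genes and lists were chosen with earlier results of these data known. Alternatives covered scaling, background, filters, outlier spots, spot summary, variance model, array weights, scan and replicate blocks, and each array left out. The background-subtracted signal, a normexp constant of 1, no scaling and the second weight estimate were chosen after seeing the data.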

Additional observations from a re-analysis of the deposited data

How the results depend on the processing

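Neither gene passed an adjusted p of 0.05 in any of 24 alternatives. For Cyp2e1 the log2 difference lay between -0.15 and 1.27 (limma adjusted p 0.463 to 0.953), with a reversed direction, -0.15, under the second estimate of array weights. Leaving out each array gave 0.26 to 1.15. For Nat1 it lay between -0.24 and 0.42 (limma adjusted p 0.216 to 0.987). The Nat1 difference was reversed at -0.24 with the scan as a fixed block and within the shared scan. In both, it is the difference of GK replicate 1 alone from the Wistar arrays. Within the shared scan the Wistar arrays alone give the spread, and with the fixed block GK replicates 2 and 3 add to it. Leaving out each array gave Nat1 differences of 0.032 to 0.36. The replicate block left the differences at 0.70 and 0.16 (limma adjusted p 0.652 and 0.872), and 97 probes passed with it, against 100 without. The labels do not say that numbers pair samples, and deviations of same-numbered arrays correlated at 0.0087, 0.099 and 0.42. Those of differently numbered arrays correlated at -0.54 to 0.46. The count of 100 probes was 62 with normexp, 64 when a probe had to be well above background on each of the 6 arrays (fewer tested), 226 and 1025 with the 2 array weight estimates, 7 with the scan as a fixed block, 23 within the shared scan and 65 with the scan as a random block. Without each array it ran from 30 to 665, the highest without GK replicate 3. The cause of these changes in the count was not tested. In the authors' table limma passed 123 of 27820 probes at the same threshold. That table lacks both probes and was not run for the 2 genes. The foreground of Cyp2e1 was at most 6.08 times background, and how far this adds to its spread was not tested.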

Other observations

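The levels of Cyp2e1 and Nat1 were also set against each other over the 6 arrays, a comparison chosen after their values were seen and the 1 relation of its kind computed. Pearson's r was -0.35 (exact permutation p = 0.522) and Spearman's rho -0.43 (exact permutation p = 0.419), so no relation passed. With 1 relation the adjusted values are the same. Without Wistar replicate 1 and GK replicate 1, the arrays farthest from the median of Cyp2e1, r was -0.49 over 4 arrays. Over the 4 arrays of the shared scan it was -0.80, with no test run on so few arrays.

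The difference between the genes within an array is the same for any scaling that subtracts 1 constant per array, as the 75th percentile does, but not for quantile normalisation. The log2 signal of Cyp2e1 minus that of Nat1 was -5.20, -3.21 and -4.40 in Wistar replicates 1, 2 and 3 and -2.76, -4.19 and -4.24 in GK replicates 1, 2 and 3. The GK mean, -3.73 ± 0.84 (SD, n = 3), was 0.54 above the Wistar mean, -4.27 ± 1.00 (SD, n = 3), and the exact two-sided permutation test gave p = 0.5. Wistar replicate 2 lay above GK replicates 2 and 3, so the groups overlapped here as well. The permutation test cannot go below 0.1 with 3 against 3 arrays, and its p lay well above that. The difference of 0.54 was smaller than the SD of either group. Whether the GK minus Wistar difference is unlike for the 2 genes was therefore not decided.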
